A study of Mus musculus with 69 samples.

Results

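The genes described here encode 7 cell surface receptors for hormones that act on vessel tone and salt and water handling: the vasopressin V1a receptor (Avpr1a), the alpha-1A, alpha-1B and beta-1 adrenergic receptors (Adra1a, Adra1b and Adrb1) and the prostaglandin E2 receptors EP1, EP3 and EP4 (Ptger1, Ptger3 and Ptger4). They were chosen by symbol, 7 of 24523 gene symbols with counts, and all 7 were present in every library and passed the filter on low counts in every comparison. RNASeq was performed on whole kidneys of female NZB/W F1 mice, a strain that develops lupus nephritis spontaneously with age. Kidneys were taken around the clock, at 6 Zeitgeber times (ZT) counted from lights on at ZT0, with lights off at ZT12, to ask which transcripts follow a daily rhythm and what happens to it in nephritis and in remission. Each library is 1 mouse.

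The 30 young mice were 12 weeks old and untreated, with 7 mice at ZT0, 4 at ZT4, 4 at ZT8, 7 at ZT12, 4 at ZT16 and 4 at ZT20. The 27 nephritic mice were older and untreated, were harvested 2 to 3 weeks after proteinuria passed 300 mg/dl and before blood urea nitrogen reached 25, and numbered 7, 4, 4, 6, 3 and 3 at the same times. The 8 remission mice, 4 at ZT0 and 4 at ZT12, had received at the onset of proteinuria 1 dose of cyclophosphamide (50 mg/kg), a cytotoxic drug, and 6 doses each of CTLA4Ig (200 ug) and anti-CD40L (250 ug), which block T cell costimulation, over 2 weeks, and were harvested 8 weeks later with proteinuria of at most 30 mg/dl. Age and nephritis cannot be told apart in these groups, nor can treatment and remission. Kidneys were perfused with PBS before RNA was isolated.

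All 7 receptors couple to G proteins. V1a, the alpha-1 receptors and EP1 raise intracellular calcium and are best known for contraction of smooth muscle, while beta-1 and EP4 raise cyclic AMP and in the kidney stimulate the release of renin. EP3 lowers cyclic AMP and, in the thick ascending limb and collecting duct, opposes the effect of vasopressin on salt and water transport.

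Totals per library ran from 25257530 to 35744843 counts in young, 26596500 to 48075977 in nephritic and 13311278 to 21849912 in remission mice, and the lowest count of any of these receptors in an original library was 53. Levels are given as CPM, read counts scaled to a common library total with TMM factors, which correct for a few very abundant genes. Markers of the nephron were detected in every library, the lowest being Nphs1 of podocytes (5.57 CPM) and Pvalb of the distal tubule (7.63 CPM) in nephritic libraries, whereas Ren1, the renin gene, was listed at 0 in 28 of 30 young, 27 of 27 nephritic and 8 of 8 remission libraries. Some libraries carried transcripts of neighbouring organs. The liver gene Alb, encoding albumin, passed 5000 CPM in 3 young libraries (ZT8 replicate 3, ZT16 replicates 1 and 3) and 1000 CPM in 7 (5 young, 2 nephritic), and the adrenal gene Cyp11b1 passed 10 CPM in 8 (7 young, 1 nephritic). In 1 library labelled remission ZT12 (replicate 4) the clock gene Arntl stood at 27.3 CPM, inside the 22.9 to 28.9 CPM of the remission ZT0 libraries, and in 1 labelled nephritic ZT8 (replicate 3) at 18.4 CPM against 2.1 to 3.8 CPM in the other 3. Young and nephritic mice were sequenced in a pair of sets, of which the first held ZT0 and ZT12 only. Remission mice were taken here to form a separate run. In whole kidney RNA, fewer cells of a type and less RNA per cell cannot be told apart.

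Per kilobase of exon, Ptger3 stood highest in young kidneys, at 10.5 ± 3.05 CPM per kb (SD, n = 30), followed by Ptger1 at 6.98 ± 0.773 and Avpr1a at 5.82 ± 2.40. Adra1a (2.31 ± 0.487), Adrb1 (1.73 ± 0.397) and Adra1b (1.47 ± 1.18) were lower, and Ptger4 was lowest at 0.610 ± 0.0993 CPM per kb. Only between Avpr1a and Adra1a did the mean ± SD ranges of neighbours in this order not overlap.

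Avpr1a, through which vasopressin constricts vessels, had the clearest daily rhythm of the 7 receptors in young kidneys, and in nephritic kidneys its rhythm differed. Of the 7 receptors, 4 varied over time in young mice (Avpr1a, Adra1a, Adra1b and Ptger3), where 39.8% of the 16521 genes tested did, and Avpr1a alone did in nephritic mice, where 21.6% of 16872 genes did. A different rhythm between the groups was called for Avpr1a and Adrb1, against 6.27% of 17521 genes.

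In young mice Avpr1a was high at the start of the light period and low at its end. The level at ZT0 ran from 20.9 CPM through a median of 22.9 to 27.7 CPM (n = 7), and at ZT12 from 6.58 through 7.78 to 9.08 CPM (n = 7). Every ZT0 mouse was thus above every ZT12 mouse. The other times had 19.9, 16.7, 17.4 and 19 CPM at ZT4, 7.66, 9.38, 11.5 and 11 CPM at ZT8, 12.1, 17.2, 16.7 and 11.5 CPM at ZT16 and 18.9, 20.9, 16.8 and 20.1 CPM at ZT20. The variation over time passed edgeR's quasi-likelihood test with Benjamini-Hochberg adjustment (adjusted p = 1.69e-11), the test used throughout. From ZT0 to ZT12, Avpr1a fell by 1.61 ± 0.10 (log2, SE; adjusted p = 1.9e-12), and it was the 1 receptor of the 7 called between these times, where 14.5% of genes were. A 24 h cosine fitted to log2 CPM had an amplitude of 0.79 ± 0.05 (SE) and a peak at 23.2 ± 0.285 h, and 97.9% of genes had a smaller amplitude (median 0.13).

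In nephritic mice Avpr1a was lower than in young mice at ZT0 and ZT4 and higher at ZT12 and ZT16. The level at ZT0 ran from 11.8 through 18 to 25.7 CPM (n = 7) and at ZT12 from 9.20 through 9.49 to 14.5 CPM (n = 6). Here the ranges of ZT0 and ZT12 overlapped. At ZT4 the nephritic mice had 11.8, 11.8, 13 and 11 CPM, all below the 4 young mice. At ZT8 they had 11.5, 13.2, 14.8 and 12.3 CPM, at ZT16 21.4, 18.4 and 22.6 CPM and at ZT20 14, 20.6 and 15.3 CPM. All nephritic mice were above all young mice at ZT8, ZT12 and ZT16, while at ZT20 the groups overlapped.

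Avpr1a varied over time in nephritic mice (adjusted p = 0.00156) and fell by 0.80 ± 0.14 from ZT0 to ZT12 (log2; adjusted p = 0.00774), again the 1 receptor called, where 3.92% of genes were. The fitted amplitude was 0.41 ± 0.10 on the log2 scale with a peak at 20.6 ± 0.874 h, and 91.6% of genes had a smaller amplitude (median 0.12). The test of the difference in rhythm itself gave an adjusted p of 0.00112, which ranged from 3.03e-06 to 0.00837 over 11 alternatives and from 0.000485 to 0.00301 when each of the 57 mice was left out. Averaged over the day, the level of nephritic mice differed from that of young mice by -0.01 ± 0.09 (log2, SE; adjusted p = 0.942).

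Adipocyte markers moved with Avpr1a in nephritic mice. The sum of Adipoq, Plin1, Cidec and Ucp1, all 4 above 0 in every library, ran from 9.53 to 229 CPM in nephritic and from 9.54 to 269 CPM in young mice, and Avpr1a ranked with it with a Spearman rho of 0.719 over the 27 nephritic mice and of -0.19 over the 30 young mice, which share time points and libraries. In nephritic mice Adipoq ran from 25.3 to 48.4 CPM at ZT16 and from 2.64 to 7.08 CPM at ZT4. The part of these cells in the Avpr1a level was not tested.

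By time point, the nephritic level of Avpr1a differed by -0.37 ± 0.12 at ZT0 (log2, SE; adjusted p = 0.0174), -0.69 ± 0.17 at ZT4 (adjusted p = 0.00166), 0.43 ± 0.13 at ZT12 (adjusted p = 0.00605) and 0.50 ± 0.18 at ZT16 (adjusted p = 0.0413). The difference at ZT8 (0.36 ± 0.17, adjusted p = 0.274) and at ZT20 (-0.24 ± 0.18, adjusted p = 0.482) did not pass. These calls are read against 39.5% of genes called at ZT0, 30.3% at ZT4, 3.66% at ZT8, 50.0% at ZT12, 17.7% at ZT16 and 5.48% at ZT20. Without nephritic ZT12 replicate 2, the highest of its group, the ZT12 difference was 0.31 (adjusted p = 0.0508), and within the second set alone it was 0.29 (adjusted p = 0.131). At ZT0 the call was lost without any one of young replicates 2 and 4 or nephritic replicates 3, 4 and 6 (adjusted p up to 0.0846). It was also lost without the libraries with Alb above 1000 CPM (-0.21, adjusted p = 0.234) or with Cyp11b1 above 10 CPM (-0.32, adjusted p = 0.0531). The ZT16 call was lost without any one of young replicates 1 and 4 or nephritic replicates 1 and 3 (up to 0.115). It was also lost without libraries with Alb above 5000 CPM (0.52, adjusted p = 0.114), which left young ZT16 replicates 2 and 4. The same held without those with Cyp11b1 above 10 CPM (0.29, adjusted p = 0.372), which left young ZT16 replicates 2 and 3. Without those with Alb above 1000 CPM, which left young ZT16 replicate 2 alone, the ZT16 difference was 0.23. The ZT4 difference held without any single mouse and without the libraries carrying liver or adrenal transcripts.

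**Figure D1:**
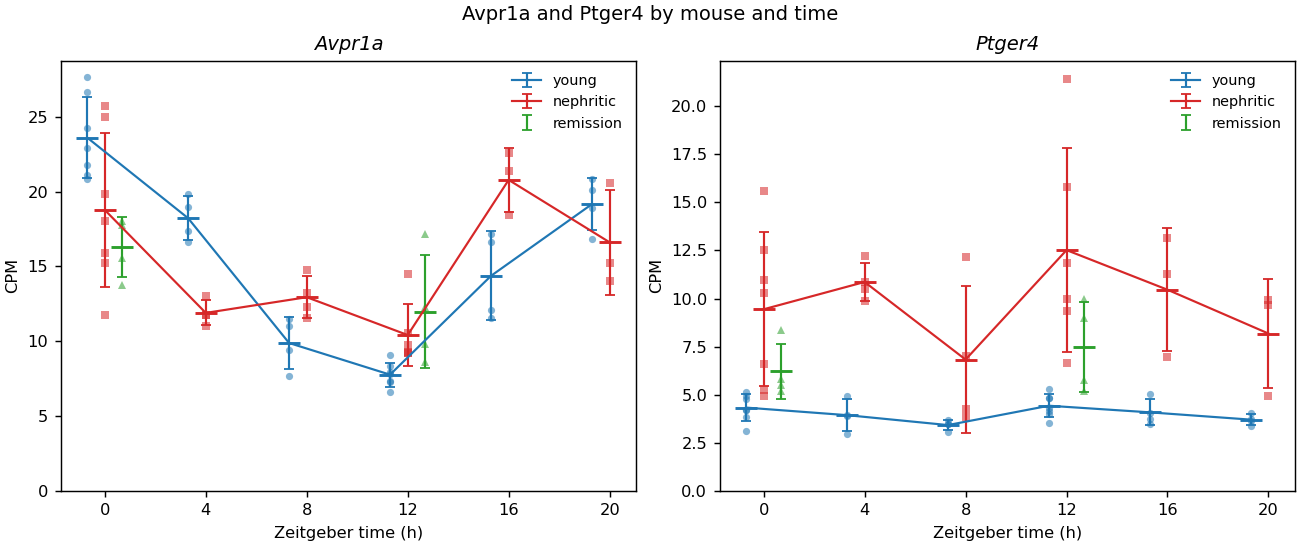
Level of Avpr1a and Ptger4 in CPM (vertical axes) at each Zeitgeber time in hours (horizontal axes), 1 point for each mouse, with group means and bars of 1 SD. Avpr1a in young mice swings from a mean of 23.6 CPM at ZT0 to 7.76 CPM at ZT12, the nephritic swing is smaller, and Ptger4 in nephritic mice lies above every young mouse at ZT4, ZT8, ZT12, ZT16 and ZT20.

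The sequence before the Avpr1a start is shown because this receptor has the largest rhythm of the 7, and that of Ptger4 because it has the largest level change. RefSeq promoters (build GRCm38.p6, 250 bases before to 50 after the start) were at hand for 5 of the 7 receptors, 6 windows in all, none for Adra1a or Ptger1. The windows were searched on both strands for the E-box CACGTG bound by clock proteins, the D-box TTATGTAA, the core letters AGGTCA of ROR sites and AGAACA of glucocorticoid receptor sites, and the cyclic AMP element TGACGTCA. None of these letters occurred in the 6 windows, while of all 32851 promoters of this length 7.15%, 0.938%, 16.3%, 19% and 1.79% hold them. Core promoter motifs, searched after this first result was seen, are in capitals below: TATAAA (held by 13.6% of all promoters), CCAAT (37.4%) and GGGCGG (35.7%), or their reverse complements. Counted from the start, TATAAA begins at base -137 of Avpr1a and the reverse complement of CCAAT at -144. In Ptger4, CCAAT begins at -75, and the reverse complement of GGGCGG occurs 4 times, at -148, -143, -95 and -42. The regions, 5′ to 3′ on the strand of the gene, are chr10:122448249-122448498 (plus strand) for Avpr1a and chr15:5244188-5244437 (minus strand) for Ptger4.
Avpr1a: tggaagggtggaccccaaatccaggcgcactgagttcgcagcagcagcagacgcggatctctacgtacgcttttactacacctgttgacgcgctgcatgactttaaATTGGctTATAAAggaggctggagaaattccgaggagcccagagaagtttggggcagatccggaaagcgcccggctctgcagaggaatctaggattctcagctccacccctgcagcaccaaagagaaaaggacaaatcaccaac
Ptger4: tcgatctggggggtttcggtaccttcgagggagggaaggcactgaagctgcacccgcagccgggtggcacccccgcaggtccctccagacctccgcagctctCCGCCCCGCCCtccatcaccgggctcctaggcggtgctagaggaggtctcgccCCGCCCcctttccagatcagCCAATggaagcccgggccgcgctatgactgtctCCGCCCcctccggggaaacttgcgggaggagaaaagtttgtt

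Of the adrenergic receptors, Adra1a was lower in nephritic kidneys. This alpha-1A receptor is the main alpha-1 subtype of renal resistance vessels. The young level ran from 11.6 through a median of 19.7 to 30.2 CPM (n = 30) and the nephritic level from 4.07 through 13.6 to 24.0 CPM (n = 27). The ranges overlapped over the whole day, while at ZT4 all 4 nephritic mice (12.1, 13.5, 13.6 and 12.2 CPM) lay below all 4 young mice (20.3, 17.5, 20.3 and 22.9 CPM). Averaged over the day, Adra1a fell by 0.54 ± 0.10 (log2, SE; adjusted p = 1.06e-05), and within the second set alone the difference was -0.33 (adjusted p = 0.00172). The call held without any single mouse. In nephritic mice the sum of the tubular injury markers Havcr1 and Lcn2 ran from 27.2 to 1491 CPM, against 25.5 to 126 CPM in young mice, and both markers rose. The median proximal tubule sum (Lrp2, Slc34a1, Slc5a2 and Slc22a6) was 5422 CPM in nephritic and 9183 CPM in young mice. Over the 27 nephritic mice Adra1a had a Spearman rho of -0.559 with the injury sum and of 0.653 with the proximal tubule sum. Over the 30 young mice the rho was 0.157 and 0.134. These mice share disease state and libraries, and the part of either sum in the Adra1a level was not tested.

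By time point, Adra1a differed by -0.79 ± 0.20 at ZT0 (adjusted p = 0.00174), by -0.73 ± 0.27 at ZT4 (adjusted p = 0.0336) and by -0.67 ± 0.22 at ZT12 (adjusted p = 0.00857). Within the second set alone the ZT12 difference was -0.10 (adjusted p = 0.75), and at ZT12 the first set held 2 nephritic mice at 4.07 and 5.86 CPM, the lowest of the group. Without either of them the call was lost (adjusted p up to 0.0662). Without the libraries with Alb above 1000 CPM the ZT0 difference was -0.57 (adjusted p = 0.0522). At ZT4 the call was lost in 31 of 57 fits with 1 mouse left out (adjusted p up to 0.1).

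In young mice Adra1a varied over time (adjusted p = 0.00587, at most 0.0161 with any mouse left out). The highest mean was 24.5 ± 2.71 CPM at ZT0 (SD, n = 7) and the lowest 14.9 ± 1.57 CPM at ZT8 (n = 4), and the fitted peak, 22.9 ± 1.34 h, lay near that of Avpr1a. The nephritic means ran from 12.0 CPM at ZT8 to 19.9 CPM at ZT20 and did not pass (adjusted p = 0.209; 0.00276 without the libraries with Alb above 1000 CPM, 2 of them nephritic), nor did the difference in rhythm (adjusted p = 0.465).

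Adra1b, the alpha-1B receptor, is abundant in mouse liver, and its highest levels were in the kidney libraries that carried liver transcripts. In the 3 young libraries with Alb above 5000 CPM it stood at 19.96, 14.7 and 13.2 CPM, whereas in the other 27 young libraries it ran from 2.12 through 3.64 to 7.19 CPM, with no overlap. The 4 liver genes Alb, Apoa1, Ahsg and Apoa5 were detected in all groups, with a sum of 22.2 to 12050 CPM in young, 3.38 to 3259 CPM in nephritic and 6.27 to 17.1 CPM in remission libraries. The call over time in young mice was at the threshold (adjusted p = 0.0497), was 0.169 without these 3 libraries, and was lost in 23 of 30 fits with 1 mouse left out (adjusted p from 0.00785 to 0.108).

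**Figure D2:**
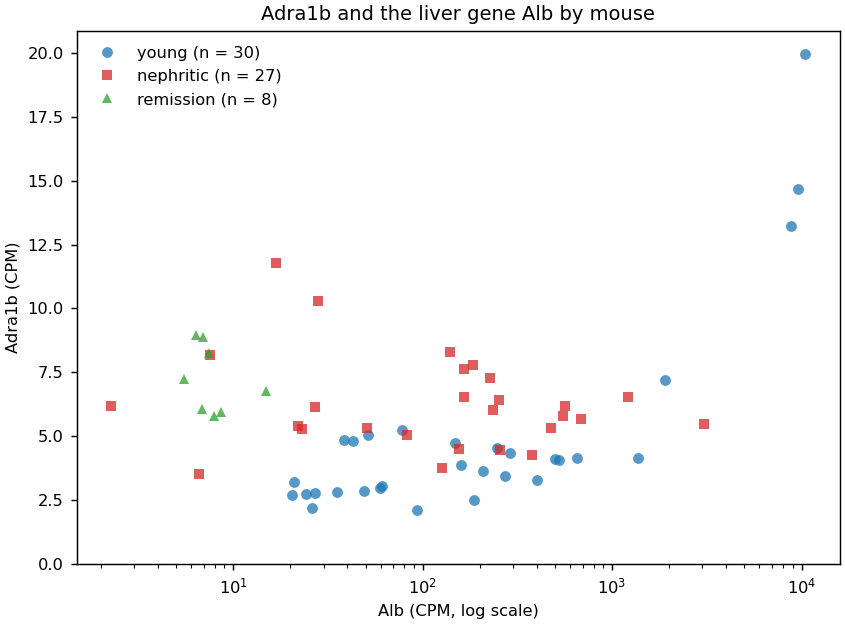
Adra1b in CPM (vertical axis) against Alb in CPM (horizontal axis, log scale), 1 point for each mouse by group. The 3 young libraries with Alb above 5000 CPM have Adra1b at 13.2 to 19.96 CPM, above all other libraries, and the 8 remission libraries have Adra1b at 5.80 to 8.95 CPM with Alb at no more than 14.8 CPM.

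Adra1b was higher in nephritic kidneys over the day. The nephritic level ran from 3.53 through 6.01 to 11.8 CPM (n = 27), inside the young range of 2.12 to 19.96 CPM (median 3.97 CPM, n = 30). The difference was 0.41 ± 0.15 (log2, SE; adjusted p = 0.0176) and 0.27 within the second set alone (adjusted p = 0.181). Without the libraries with Alb above 5000 CPM it was 0.71 (adjusted p = 4.64e-08). At ZT0, where no library with Alb above 5000 CPM occurred, 6 of 7 nephritic mice were above all 7 young mice, a difference of 0.75 ± 0.30 (adjusted p = 0.0405) that lost its call without any one of young replicates 4, 5, 6 and 7 or nephritic replicates 1 and 6 (adjusted p up to 0.124) and in the second set alone (0.35, adjusted p = 0.531). At ZT20 all 3 nephritic mice (4.46, 6.54 and 6.01 CPM) were above the 4 young mice (3.64, 4.12, 3.20 and 3.06 CPM), with a difference of 0.65 ± 0.42 that did not pass (adjusted p = 0.411). At ZT16 the difference was -0.04 (adjusted p = 0.953) with all libraries. Without those with Alb above 5000 CPM, which left only young ZT16 replicates 2 and 4 (2.12 and 4.14 CPM), it was 1.42 (adjusted p = 0.00482).

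Adrb1, the beta-1 receptor that drives renin release from juxtaglomerular cells, was low in level, and its time course was called different between the groups by a narrow margin. The young level ran from 2.87 through 5.75 to 8.51 CPM (n = 30) and the nephritic level from 2.24 through 5.03 to 9.94 CPM (n = 27). These ranges overlapped almost fully, and the level over the day differed by -0.16 ± 0.11 (log2; adjusted p = 0.179). The test of a different rhythm gave an adjusted p of 0.0491. In young mice the highest mean was at ZT12 (6.89 ± 1.53 CPM, SD, n = 7) and the lowest at ZT20 (4.51 ± 0.822 CPM, n = 4), while in nephritic mice the highest was at ZT16 (7.41 ± 2.34 CPM, n = 3) and the lowest at ZT0 (4.32 ± 1.34 CPM, n = 7). The young ZT12 mean was 8.45 CPM in the first set and 5.72 CPM in the second. Within the second set, which alone held all time points, the highest young mean was 6.52 CPM at ZT0. Neither course passed on its own (adjusted p = 0.146 for young and 0.313 for nephritic mice). The call of a different rhythm was lost in 40 of 57 fits with 1 mouse left out (adjusted p from 0.0259 to 0.123), and without the libraries with Alb above 5000 CPM the adjusted p was 0.171. It was also lost in the second set alone.

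At ZT0, Adrb1 was lower in nephritic mice by 0.54 ± 0.18 on the log2 scale (adjusted p = 0.0168), and 5 of 7 nephritic mice were below all 7 young mice. The nephritic ZT0 level ran from 2.24 through 4.60 to 6.32 CPM and the young one from 4.98 through 6.17 to 7.46 CPM. Without young ZT0 replicate 2 or nephritic ZT0 replicate 6 the call was lost (adjusted p up to 0.0688), and without the libraries with Alb above 1000 CPM the difference was -0.34 (adjusted p = 0.179). Without those with Cyp11b1 above 10 CPM the ZT0 difference was -0.47 (adjusted p = 0.0578). Young mice at ZT12 differed by set, with 8.35 to 8.51 CPM in the first and 5.28 to 6.6 CPM in the second. Over the 27 nephritic mice Adrb1 ranked against the tubular injury sum with a Spearman rho of -0.802. With the proximal tubule sum and with the distal tubule sum (Slc12a3 and Pvalb) the rho was 0.708 each. Over the 30 young mice the rho with these sums was 0.0131, 0.277 and 0.3. The part of these sums in the Adrb1 level was not tested.

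**Figure D3:**
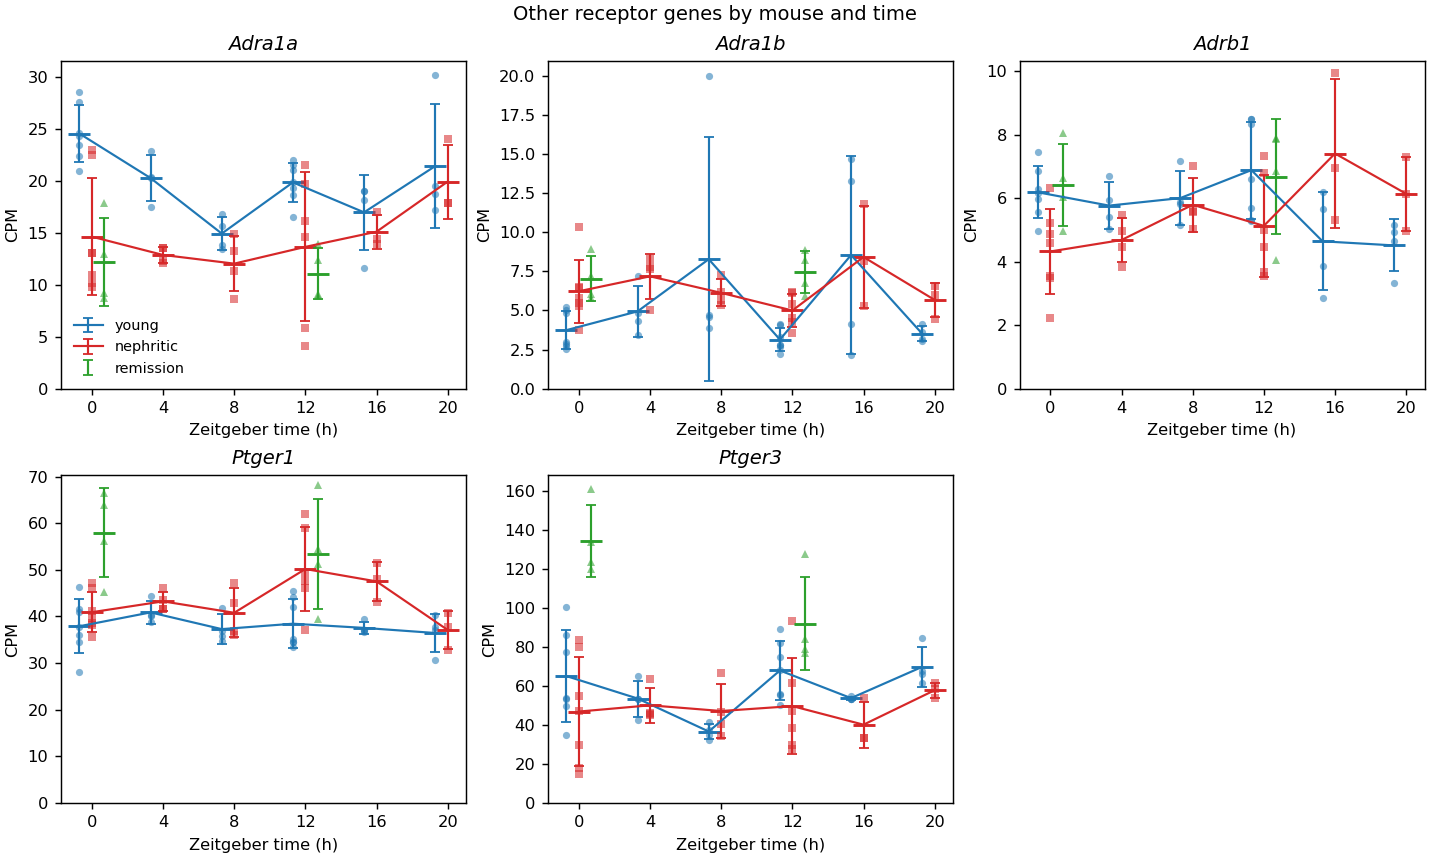
Level of Adra1a, Adra1b, Adrb1, Ptger1 and Ptger3 in CPM (vertical axes) at each Zeitgeber time in hours (horizontal axes), 1 point for each mouse, with group means and bars of 1 SD. Adra1a lies lower in nephritic than in young mice at ZT0 and ZT4, the 3 Adra1b points above 13 CPM are the young libraries with Alb above 5000 CPM, and Ptger3 is highest in remission.

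Of the prostaglandin E2 receptors, Ptger4 had the largest level change of all 7 genes. EP4 is found in glomeruli, in tubules and in macrophages, where it lowers the release of inflammatory cytokines. The young level ran from 2.95 through a median of 3.98 to 5.31 CPM (n = 30) and the nephritic level from 3.84 through 10 to 21.4 CPM (n = 27). Ptger4 rose in nephritic mice by 1.25 ± 0.11 (log2, SE; adjusted p = 8.16e-15), and within the second set alone by 1.22 (adjusted p = 1.11e-11).

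Ptger4 was higher at each of the 6 time points. At ZT0 the nephritic level ran from 4.92 through 10.3 to 15.6 CPM and the young level from 3.12 through 4.23 to 5.14 CPM, and 6 of 7 nephritic mice were above all young mice. The nephritic mice had 10.9, 10.5, 12.2 and 9.88 CPM at ZT4, 3.84, 4.28, 12.2 and 7.03 CPM at ZT8, 6.93, 11.3 and 13.2 CPM at ZT16 and 9.94, 4.93 and 9.67 CPM at ZT20. The young mice at these times had 4.94, 3.94, 3.90 and 2.95 CPM, 3.45, 3.69, 3.06 and 3.46 CPM, 5.03, 3.73, 4.05 and 3.50 CPM, and 3.74, 3.65, 4.03 and 3.37 CPM. At ZT12 the nephritic range was 6.64 to 21.4 CPM (median 10.9 CPM, n = 6) and the young range 3.52 to 5.31 CPM (median 4.32 CPM, n = 7). At every time but ZT0 the groups did not overlap.

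The differences in Ptger4 were 1.11 ± 0.22 at ZT0 (log2, SE; adjusted p = 8.58e-05), 1.39 ± 0.29 at ZT4 (adjusted p = 0.000302), 0.96 ± 0.29 at ZT8 (adjusted p = 0.0477), 1.49 ± 0.22 at ZT12 (adjusted p = 4.72e-07), 1.33 ± 0.30 at ZT16 (adjusted p = 0.00132) and 1.11 ± 0.30 at ZT20 (adjusted p = 0.0198). The ZT8 difference was 0.58 (adjusted p = 0.59) without nephritic ZT8 replicate 3, the library whose Arntl level departs from its label, and the call was lost in 14 of 57 fits with 1 mouse left out and without the libraries with Alb above 5000 CPM (0.95, adjusted p = 0.125). Without those with Cyp11b1 above 10 CPM the ZT8 difference was 1.00 (adjusted p = 0.0597). Without those with Alb above 1000 CPM, which left young ZT16 replicate 2 as the only young mouse at ZT16, the ZT16 difference was 1.44. At ZT20 the call was lost without any one of young replicates 1, 2 and 4 or nephritic replicates 1 and 3 (adjusted p up to 0.169). No variation over time was called for Ptger4 among young (adjusted p = 0.486) or nephritic mice (adjusted p = 0.497), nor a difference in rhythm (adjusted p = 0.772).

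Macrophage markers moved with Ptger4 in nephritic mice, as did markers of other cells. The sum of Cd68, Adgre1, Csf1r and Lyz2 ran from 72.3 to 185 CPM in young and from 170 to 694 CPM in nephritic mice, and all 4 markers rose, by 0.21 (Csf1r) to 2.61 (Lyz2) on the log2 scale. Over the 27 nephritic mice, Ptger4 ranked with the macrophage sum and with the tubular injury sum, each with a Spearman rho of 0.748, and against the distal tubule sum (Slc12a3 and Pvalb) with a rho of -0.747. The rho was 0.719 with the sum of smooth muscle, mesangium and renin cell markers (Acta2, Myh11, Pdgfrb and Ren1) and -0.73 with the proximal tubule sum. Ren1 was at 0 in all 27 nephritic libraries, so the former sum held no renin signal. Over the 30 young mice the rho with the macrophage sum was 0.322, and the highest was 0.669, with the endothelium sum (Pecam1, Cdh5, Kdr and Emcn). These points share disease state and libraries, and the part of these cells in the Ptger4 level was not tested. A processed pseudogene, Gm15937, covers 15.3% of the exon bases of Ptger4 and has no count here.

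Ptger1, encoding EP1, moved little. The young level ran from 28.0 through 37.4 to 46.2 CPM (n = 30) and the nephritic level from 32.8 through 42.9 to 62.0 CPM (n = 27), with wide overlap. The nephritic level was higher by 0.16 ± 0.05 (log2, SE; adjusted p = 0.00292), and by 0.13 within the second set alone (adjusted p = 0.0179). At ZT12, 5 of 6 nephritic mice were above all young mice, with a difference of 0.38 ± 0.10 (adjusted p = 0.000844) that was 0.11 in the second set alone (adjusted p = 0.47). No variation over time was called in young (adjusted p = 0.583) or nephritic mice (adjusted p = 0.0573). Exons of Ptger1 are in part overlapped by transcription from the other strand, and the strand used in counting is not given in the sources used here, so the counts of Ptger1 are uncertain.

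Ptger3, encoding EP3, was the most abundant of the 7 genes per kilobase and followed Slc12a1, the salt transporter of the thick ascending limb. The young level ran from 32.3 through 54.3 to 100.5 CPM (n = 30) and the nephritic level from 14.5 through 46.8 to 93.2 CPM (n = 27). The lowest nephritic mice were below all young mice, with most of the ranges shared. The difference, -0.27 ± 0.13 (log2, SE), did not pass (adjusted p = 0.0667). It passed by limma on log2 CPM (-0.37, adjusted p = 0.0144), without the set term (-0.29, adjusted p = 0.046), and when young ZT0 replicate 4, nephritic ZT0 replicate 7 or nephritic ZT12 replicate 4 was left out (adjusted p as low as 0.0272), while the second set alone gave -0.06 (adjusted p = 0.67). Young ZT0 mice differed by set, with 77.2 to 100.5 CPM in the first and 34.6 to 53.7 CPM in the second.

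In young mice Ptger3 varied over time (adjusted p = 0.00111, and 0.00115 within the second set alone). The lowest mean was 36.5 ± 4.03 CPM at ZT8 (SD, n = 4), where the mice had 41.7, 37.6, 34.6 and 32.3 CPM, and the highest 69.7 ± 10.1 CPM at ZT20 (n = 4), where they had 61.3, 65.9, 84.4 and 67.4 CPM. All ZT20 mice were above all ZT8 mice. In nephritic mice the means ran from 40.1 CPM at ZT16 to 57.8 CPM at ZT20, and no variation was called (adjusted p = 0.929). The difference in rhythm did not pass (adjusted p = 0.656).

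Of 13851 genes compared, Slc12a1 was the gene most like Ptger3 across young mice, with a Spearman rho of 0.959 (n = 30), and across nephritic mice the rho was 0.736 (n = 27). The mice share time points, sequencing sets and libraries, and these are descriptions. In young mice Slc12a1 ran from 1993 to 2486 CPM in the first set and from 682 to 2296 CPM in the second. Ptger3 ran from 68.0 to 100.5 CPM and from 32.3 to 84.4 CPM in the same sets. Per 1000 Slc12a1 counts, the median Ptger3 count was 45.4 in young mice (34.1 to 60.0), 45.1 in nephritic mice (30.0 to 133) and 58.8 in remission mice (47.3 to 63.1). In nephritic mice Slc12a1 itself ran from 133 to 2047 CPM and differed by -0.31 from young mice (log2; adjusted p = 0.0745). By the same measure in young mice, the gene most like Avpr1a was Sumo3 (rho 0.917 in young and 0.699 in nephritic mice) and that most like Adra1a was Col8a1 (0.824 and -0.445). For Adra1b it was Cebpa (0.849 and 0.288) and for Adrb1 Atp5b (0.726 and 0.654). For Ptger1 it was Cactin (0.815 and 0.583) and for Ptger4 Adamts15 (0.717 and 0.184). Cebpa is a liver and fat cell transcription factor. Among the receptors themselves, the highest positive rank correlation in young mice was that of Avpr1a with Adra1a (rho 0.494).

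**Figure D4:**
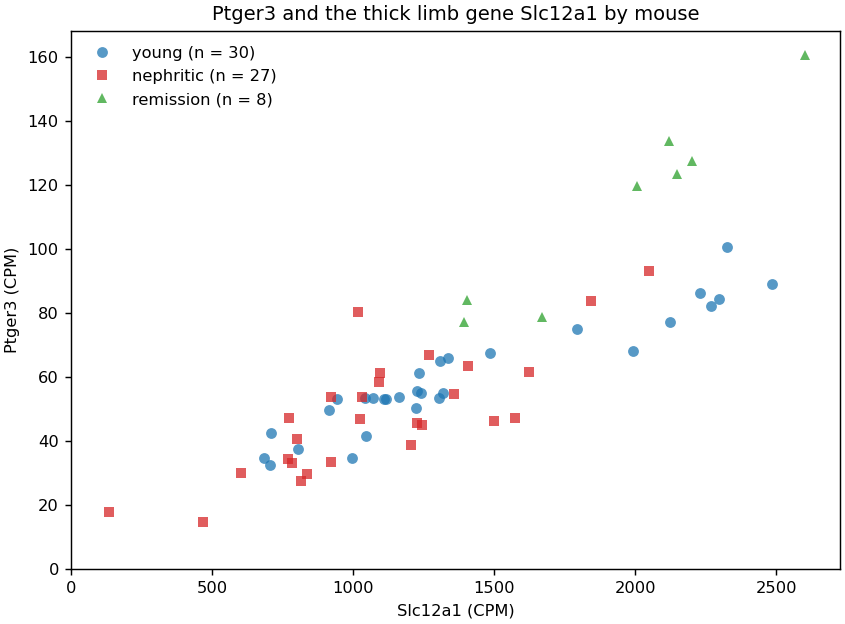
Ptger3 in CPM (vertical axis) against Slc12a1 in CPM (horizontal axis), 1 point for each mouse by group. Young mice lie close to a line with a Spearman rho of 0.959, nephritic mice scatter more widely with a rho of 0.736, and the 8 remission mice lie at the upper end at 77.1 to 161 CPM of Ptger3.

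Averaged over the day, 4 of the 7 receptors differed in level between nephritic and young mice, where 62.1% of genes did. Ptger4, Adra1b and Ptger1 were higher (28.1% of genes) and Adra1a was lower (33.9% of genes). The median log2 difference of the 7 was -0.01, beside -0.03 over all genes tested, and the share of receptors called, 4 of 7, is near that background. Of the 42 combinations of receptor and time point, 16 were called, where 3.66% (ZT8) to 50% (ZT12) of genes were called at a single time.

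**Figure D5:**
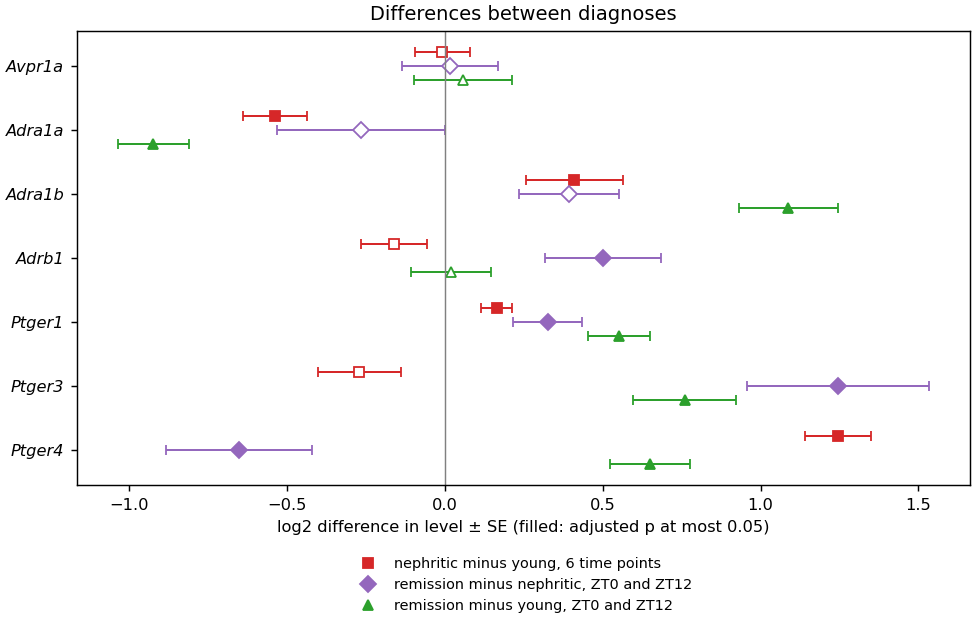
Log2 difference in level of the 7 receptors (horizontal axis) with bars of 1 SE and filled symbols where the adjusted p was at most 0.05, for nephritic against young, remission against nephritic and remission against young mice. Ptger4 is highest for nephritic against young at 1.25, and Ptger3 is highest for remission against nephritic at 1.25.

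Related genes of the 3 hormone systems moved in both directions. Of 54 tested, 36 differed in level between nephritic and young mice, 18 higher and 18 lower, near the 62.1% of all genes called (28.1% higher and 33.9% lower). Among 6 other adrenergic receptors, 4 were called, among them the alpha-2 receptors Adra2b (-0.62 on the log2 scale) and Adra2a (0.40) and the beta-3 receptor Adrb3 (-0.57, adjusted p = 0.0444, up to 0.0854 over 10 alternatives). Of 4 vasopressin and oxytocin genes tested, the oxytocin receptor Oxtr fell by 1.2 (adjusted p = 0.000521), and without the 8 libraries with Cyp11b1 above 10 CPM the difference was -0.47 (adjusted p = 0.0832). Avpr2, the vasopressin V2 receptor of the collecting duct, differed by -0.03 (adjusted p = 0.728).

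The other prostanoid receptors and the enzymes of prostanoid metabolism also moved both ways. Of 5 receptors tested, the EP2 receptor Ptger2 rose by 0.90 (log2; adjusted p = 7.42e-07), the prostacyclin receptor Ptgir rose by 0.74 (adjusted p = 6.32e-08) and the thromboxane receptor Tbxa2r fell by 0.43 (adjusted p = 0.000333). Of 15 enzymes and transporters, 4 rose and 6 fell. Hpgds, the prostaglandin D synthase of blood cells, rose by 2.42 (adjusted p = 5.77e-21), the prostaglandin E synthase Ptges rose by 0.60 (adjusted p = 5.34e-05), and Hpgd, which inactivates prostaglandins, fell by 0.58 (adjusted p = 0.000669), with -0.30 in the second set alone (adjusted p = 0.06). Ptgs2, the inducible cyclooxygenase, differed by 0.22 (adjusted p = 0.449) and by 0.65 in the second set alone (adjusted p = 0.0281).

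Of 8 genes of catecholamine synthesis, uptake and breakdown, 5 fell and 0 rose, beside 33.9% and 28.1% of all genes. Monoamine oxidase B (Maob) fell by 0.79 (log2; adjusted p = 8.06e-05). Th and Dbh, enzymes of catecholamine synthesis in the adrenal medulla and in nerves, fell by 4.85 (adjusted p = 0.00383) and 3.46 (adjusted p = 0.0117), and over 9 alternatives the differences ran from -7.13 to -1.48 for Th (adjusted p up to 0.0567) and from -5.15 to -1.44 for Dbh (adjusted p up to 0.0599). Th was listed at 0 in 16 of 30 young and 22 of 27 nephritic libraries. In the 8 libraries with Cyp11b1 above 10 CPM, 7 of them young and 1 nephritic, Th ran from 0.55 to 24.9 CPM. In all other libraries Th was at most 0.74 CPM. Without those 8 libraries Th did not pass the filter on low counts, so that alternative is not among the 9. Both Th and Dbh are among the 5 genes that fell. The adrenal marker sum ran up to 1074 CPM in young and 645 CPM in nephritic libraries, and its part in these differences was not tested. Of 16 G proteins and desensitisation genes, 10 rose and 3 fell, beside 28.1% and 33.9% of all genes. Arrb2, a beta-arrestin that uncouples receptors from G proteins, rose by 1.22 (adjusted p = 1.46e-14), the receptor kinase Grk3 rose by 0.50 (adjusted p = 3.67e-10), and Plcb1, a phospholipase activated by calcium-coupled receptors, fell by 0.70 (adjusted p = 1.47e-10).

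In remission kidneys Ptger3 stood at its highest level. The remission mice had 124, 161, 120 and 134 CPM at ZT0 and 78.9, 77.1, 84.0 and 127 CPM at ZT12, the last being the library whose Arntl level departs from its label. At the same times the nephritic mice ran from 14.5 through 47.3 to 93.2 CPM (n = 13) and the young mice from 34.6 through 61.8 to 100.5 CPM (n = 14). Of the 8 remission mice, 5 were above every nephritic mouse and every young mouse. Ptger3 was higher in remission than in nephritic mice by 1.25 ± 0.29 (log2, SE; adjusted p = 0.00256), and with any 1 of the 21 mice left out the adjusted p was at most 0.00697. Slc12a1 and Umod, the thick limb markers, were also higher, by 0.87 and 0.87 on the log2 scale (adjusted p = 0.039 and 0.0147).

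Of the 7 receptors, 4 differed between remission and nephritic mice at ZT0 and ZT12, where 35.8% of 16344 genes did, 3 of them higher (16.8% of genes) and 1 lower (19%). Besides Ptger3, Adrb1 was higher by 0.50 ± 0.18 (adjusted p = 0.0385) and Ptger1 by 0.33 ± 0.11 (adjusted p = 0.0258), and Ptger4 was lower by 0.65 ± 0.23 (adjusted p = 0.0339). The remission levels of Adrb1 were 6.05, 8.05, 4.95 and 6.64 CPM at ZT0 and 7.87, 7.91, 6.87 and 4.07 CPM at ZT12, and 3 of 8 were above all 13 nephritic mice (2.24 to 7.34 CPM). The remission levels of Ptger4 were 5.21, 5.49, 5.83 and 8.34 CPM at ZT0 and 5.19, 9.0, 9.95 and 5.74 CPM at ZT12, all within the nephritic range of 4.92 to 21.4 CPM. Those of Ptger1 were 45.2, 63.8, 56.2 and 66.4 CPM at ZT0 and 39.5, 51.2, 54.4 and 68.3 CPM at ZT12, with 3 above the nephritic range of 35.6 to 62.0 CPM.

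The remission libraries and the repeat libraries of 4 mice of the other groups were taken here to form a separate run. The term for run rests on this grouping. With a term for run fitted through these repeats, Ptger3 (1.36, adjusted p = 0.0107) and Adrb1 (0.71, adjusted p = 0.0293) kept their calls, while Ptger1 was 0.08 (adjusted p = 0.714) and Ptger4 -0.69 (adjusted p = 0.0561). The repeat of nephritic ZT12 replicate 6 departed from its original, with 11.8 against 22.1 CPM for Adra1a, 9.87 against 4.37 CPM for Adra1b and 4.81 against 7.55 CPM for Adrb1. Ptger4 lost its call without any one of nephritic ZT12 replicates 1 and 2, nephritic ZT0 replicate 6, remission ZT0 replicates 1, 2 and 3 or remission ZT12 replicates 1 and 4 (adjusted p up to 0.0716), Ptger1 without remission ZT0 replicate 2 or 4 or ZT12 replicate 4 (up to 0.0665), and Adrb1 in 13 of 21 such fits (up to 0.0927).

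Against young mice, 5 of the 7 receptors differed in remission, where 53.0% of 15982 genes did, 4 of them higher (26.2% of genes) and 1 lower (26.8%). Adra1b was higher by 1.09 ± 0.16 (log2, SE; adjusted p = 4.93e-06), and the 8 remission mice (5.80, 7.22, 6.07 and 8.95 CPM at ZT0, 6.78, 8.24, 5.94 and 8.87 CPM at ZT12) were all above the 14 young mice (2.20 through 2.90 to 5.24 CPM). Ptger3 (0.76), Ptger4 (0.65) and Ptger1 (0.55) were higher and Adra1a lower (-0.92). The remission levels of Adra1a were 12.9, 9.15, 17.8 and 8.70 CPM at ZT0 and 13.9, 12.3, 9.13 and 8.87 CPM at ZT12, and 7 of 8 were below all 14 young mice (16.5 to 28.6 CPM). With the term for run, none of the 5 passed (adjusted p from 0.0674 for Adra1a to 0.239 for Adra1b), at log2 differences of -0.77 for Adra1a, 0.46 for Adra1b, 0.30 for Ptger1, 0.90 for Ptger3 and 0.69 for Ptger4. Both remission comparisons use the same 8 mice.

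Avpr1a in remission had 13.8, 17.8, 15.6 and 18.1 CPM at ZT0 and 12.3, 9.81, 8.63 and 17.2 CPM at ZT12. Both times overlapped through ZT12 replicate 4, the library with the highest of the 4 ZT12 values and an Arntl level that departs from its label. The change from ZT0 to ZT12 was -0.46 ± 0.21 (log2, SE; adjusted p = 0.501) with all 8 mice, and without that library it was -0.69 (adjusted p = 0.0813). For Ptger3 the change was -0.56 ± 0.17 (adjusted p = 0.487), and -0.77 (adjusted p = 0.0209) without that library. Of the 7 receptors 0 were called with all 8 mice, where 0% of 14451 genes were (0 by edgeR and 0 by limma, 24 by DESeq2, and 1449 at an unadjusted p under 0.05). The change from ZT0 to ZT12 was called different between remission and nephritic mice for 0 receptors, again with 0% of genes called (0 by edgeR and limma, 1 by DESeq2, and 782 at an unadjusted p under 0.05). For Avpr1a this difference was 0.39 ± 0.30 (adjusted p = 0.98), and for Ptger1 -0.43 ± 0.21 (adjusted p = 0.973).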

How the data were processed

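Per the labels, total RNA of PBS-perfused kidneys was extracted with TRIzol, and paired-end libraries (150 bases) were sequenced. The authors deposited raw read counts for each gene symbol. The submitters' processing notes name HISAT and mm10, whereas the study's methods describe Burrows-Wheeler alignment and counting of uniquely aligned reads. The strand used in counting is not given in the sources used here.

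Of 69 libraries, 65 originals were used in the main fits. The 4 repeats served only the run term, the alternative with repeats in place of originals and the comparison with their originals. Symbols with summed counts of at least 100 were fitted with edgeR 4.0.16 in R 4.3.3 (TMM scaling, quasi-likelihood F test, Benjamini-Hochberg adjustment over all genes tested, threshold 0.05). Fits of young and nephritic mice had time point and sequencing set as terms, since the first set held ZT0 and ZT12 only. The main comparisons of remission with nephritic or young mice had a time point term and no set term. Within remission mice, time point was the only term. Set was read from the prefix of the sample titles. Levels are TMM-scaled CPM, and a 24 h cosine was fitted to log2 CPM with a prior count of 2. Alternatives were RLE size factors, no filter, DESeq2 1.42.0, limma 3.58.1, no set term, the second set alone, the cosine, repeats in place of originals, leaving out each mouse and, added after seeing the data, leaving out libraries with liver or adrenal transcripts or an unexpected Arntl level. Scripts were tested on simulated counts. Positions and exon lengths are from GENCODE vM21 (GRCm38).

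The receptors and all gene lists were chosen with earlier results of these data known. All 7 receptors are named, and the related genes named are those of each list with the largest called changes, with a few fixed controls; some listed genes are not reported here. Replicate numbers only name mice, whose identity the labels give, so p-values measure spread between mice.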

Additional observations from a re-analysis of the deposited data

Results flagged for a closer look

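Of 84 groups of 4 to 10 mice, 8 held a mouse far from the others by Dixon's test, which chance flags in about 1 in 20 groups. Young ZT16 replicate 1, a library with Alb above 5000 CPM, was set apart for 3 receptors: Adra1a at 11.6 CPM (the next mouse had 18.2 CPM), Ptger1 at 39.4 CPM (next 37.0 CPM) and Ptger3 at 54.9 CPM (next 53.4 CPM). Adra1b stood at 19.96 CPM in young ZT8 replicate 3, also with Alb above 5000 CPM (next 4.71 CPM), and at 10.3 CPM in nephritic ZT0 replicate 1 (next 6.53 CPM). Avpr1a stood at 14.5 CPM in nephritic ZT12 replicate 2 (next 10.6 CPM). Ptger3 stood at 63.4 CPM in nephritic ZT4 replicate 1 (next 46.1 CPM) and at 127 CPM in remission ZT12 replicate 4 (next 84.0 CPM), the library with a ZT0-like Arntl level.

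The rhythm differed between nephritic and young mice, by the test of the difference itself, for Avpr1a (adjusted p = 0.00112 by edgeR's quasi-likelihood test) and for Adrb1 (adjusted p = 0.0491).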

How the results depend on the processing

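Counts below are receptors called of 7. The share of all genes called in the same fit is in brackets. Over time in nephritic mice 1 was called (21.6%). It was 2 by DESeq2 (33.5%), with repeats in place of originals (15.1%) or without libraries with Cyp11b1 above 10 CPM (25.7%). Without those with Alb above 1000 CPM it was 4 (42.8%). A different rhythm was called for 2 (6.27%). It was called for 1 without the filter (3.47%), in the second set alone (9.89%), by the cosine (0.691%) and without libraries with Alb above 5000 CPM (2.51%). From ZT0 to ZT12, 1 was called in young mice (14.5%), and 2 without libraries with Alb above 5000 (15.3%) or Cyp11b1 above 10 CPM (11.3%). In nephritic mice it was 1 (3.92%), and 2 by DESeq2 (7.98%) or without Cyp11b1 above 10 CPM (5.61%). Without Alb above 1000 CPM it was 4 (25.9%). In remission it was 0 (0%), and 1 without ZT12 replicate 4 (1.41%). Remission differed from nephritic mice for 4 (35.8%), and for 2 with the run term (22.9%) or without ZT12 replicate 4 (31.4%). It differed from young mice for 5 (53.0%), and for 0 with the run term (13.1%). With each mouse left out, counts were 3 to 4 (young over time), 1 to 2 (nephritic over time), 1 to 2 (different rhythm), 4 to 5 (level), 13 to 17 (receptor and time point pairs), 1 to 2 (ZT12 against ZT0, young and nephritic), 0 to 1 (remission), 1 to 4 (remission against nephritic), 5 to 5 (remission against young) and 0 to 0 (difference in ZT12 to ZT0 change). Adra1b at ZT16 turned from -0.04 to 1.42 without libraries with Alb above 5000 CPM, which left young ZT16 replicates 2 and 4. Without those with Alb above 1000 CPM it was 1.94, with young ZT16 replicate 2 the only young mouse at that time. Of values for single genes, 1123 kept their side of the threshold, 55 lost and 30 gained it. Over all genes, counts of calls ranged widely for young over time (6583, alternatives 3931 to 7608), nephritic over time (3646, 362 to 7163), different rhythm (1099, 121 to 2186), ZT12 against ZT0 in nephritic mice (661, 167 to 4332), nephritic against young at ZT0 (6916, 3027 to 7205), ZT8 (641, 398 to 966), ZT12 (8757, 5080 to 9106) and ZT16 (3104, 621 to 4512), remission against nephritic (5850, 3882 to 6433) and remission against young mice (8468, 2225 to 8705). The causes were not tested. No paired analysis was possible because replicate numbers only name mice of different groups. Adra1b, Adrb1 and Ptger4 had the lowest counts (53 to 679), which limits their precision, and intervals cover spread between mice only.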
